A study of Homo sapiens with 6 samples.

Results

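The 10 ERK pathway feedback and output genes described here are DUSP1, DUSP4, DUSP5, DUSP6, SPRY2, SPRY4, SPRED1, SPRED2, ETV4 and ETV5. They were taken as a list of symbols, matched to the gene identifiers of the count table, and make up 10 of its 63677 genes. RNA was measured in UWB1.289 cells, a human ovarian carcinoma cell line that the study describes as BRCA1-deficient and whose label gives the genotype WT. There were 3 samples treated for 24 h with Olaparib, an inhibitor of the poly(ADP-ribose) polymerase PARP1, and 3 treated with DMSO, the vehicle. The sample labels give a dose of 4 µM, whereas the design text of the series gives 10 µM. Each sample was an independent culture of this 1 line, so no second cell line or dose was compared. All 10 genes passed the filter of more than 10 counts in total.

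The extracellular signal-regulated kinases (ERK) are the last step of a cascade in which growth factor receptors activate RAS, then RAF, then MEK, then ERK. Active ERK raises the transcription of its own brakes. DUSP proteins are phosphatases that remove the activating phosphates from MAP kinases, while Sprouty (SPRY) and SPRED proteins act further up, at the level of RAS and RAF. ETV4 and ETV5 are ETS family transcription factors that are transcribed in response to ERK signaling, and transcripts of several of these genes are widely used as a readout of it.

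The 4 phosphatase genes changed after Olaparib, and not in 1 direction. DUSP1, DUSP4 and DUSP5 rose 1.21-fold, 1.21-fold and 1.12-fold, whereas DUSP6 fell to 0.908 of its level in DMSO. The SPRY, SPRED and ETV genes did not pass the test. In bulk RNA a changed share of cells and a changed level per cell cannot be told apart. Tested by edgeR's quasi-likelihood method, with Benjamini-Hochberg adjusted p values over all 21729 genes, 4 of the 10 genes passed an adjusted p of 0.05, 3 higher and 1 lower. Over all genes tested 3.36% were called in this way, 2.15% higher and 1.21% lower. Among the 6374 genes whose mean normalized count lay within the range of the 10 genes, 644 to 4440, the share was 5.24%. The 10 genes were chosen with earlier results of these data known, so setting them against these shares is a description and no independent test. Over the 10 genes the log2 fold change had a median of 0.038, against -0.0042 over all genes tested, with 5 genes on either side of 0. With an absolute change of more than 1.2-fold as a further condition, DUSP1 and DUSP4 were left, both higher, where 1.21% of all genes passed and 0.723% were higher. Each lay close to this limit and fell short of it with 1 library left out, DUSP1 without Olaparib replicate 1 (log2 fold change 0.25) and DUSP4 without Olaparib replicate 3 (0.26).

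The promoters of DUSP1 and DUSP6 are shown because these phosphatase genes moved in opposite directions. Each is given as the 250 bases before the RefSeq gene start (GRCh38.p14), 5′ to 3′ on the strand of the gene. The window of DUSP1 is chr5:172771196-172771445 and that of DUSP6 is chr12:89352502-89352751, both on the minus strand. Capitals mark matches to any of the 5 motifs searched on both strands, which were TGACGTCA (the cAMP response element), TATAAA (the TATA box), CCGGAAGT (an ETS site), TGANTCA (an AP-1 site) and the CArG box of serum response factor.
DUSP1: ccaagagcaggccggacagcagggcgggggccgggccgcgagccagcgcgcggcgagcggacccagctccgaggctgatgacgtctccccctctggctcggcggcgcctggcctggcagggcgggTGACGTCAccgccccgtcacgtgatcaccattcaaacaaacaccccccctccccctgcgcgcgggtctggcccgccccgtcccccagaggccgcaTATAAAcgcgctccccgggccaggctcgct
DUSP6: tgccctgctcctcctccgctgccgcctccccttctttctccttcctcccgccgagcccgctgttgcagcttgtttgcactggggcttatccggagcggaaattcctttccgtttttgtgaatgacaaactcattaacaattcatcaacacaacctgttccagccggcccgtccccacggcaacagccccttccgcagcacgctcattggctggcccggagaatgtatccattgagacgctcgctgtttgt
In DUSP1 the cAMP response element lay 125 to 118 bases and the TATA box 30 to 25 bases before the gene start, and the 2 matches did not overlap. The DUSP6 window held none of the 5 motifs. GC made up 74.4% of the DUSP1 window and 57.2% of the DUSP6 window. Of 35116 promoter windows of this length, 1.65% held TGACGTCA, 10.7% TATAAA, 3.42% CCGGAAGT, 6.57% TGANTCA and 1.16% a CArG box. RefSeq windows of 6 of the 10 genes were searched (DUSP1, DUSP6, SPRY2, SPRY4, SPRED1 and SPRED2). No window of DUSP4, DUSP5, ETV4 or ETV5 was part of this search, so motifs in their promoters were not tested. Their absence here does not show that RefSeq lacks a window for them. Beside DUSP1, the one match in the searched windows was a TATAAA in 1 of the 2 SPRED2 windows, 31 to 26 bases before that start. These matches describe the letters of the windows and no binding was measured.

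DUSP1 (ENSG00000120129, chromosome 5, 172768096 to 172771195 on GRCh38) encodes a nuclear phosphatase of ERK, p38 and JNK that is induced by growth factors and by stress. Its normalized read counts, that is counts scaled to a common library size, were 1341, 1279 and 1234 in the 3 Olaparib samples and 1054, 1070 and 1054 in the 3 DMSO samples. All treated samples were above all controls. The means were 1285 ± 53.9 and 1059 ± 9.11 (SD, n = 3 each). The log2 fold change between them was 0.28 (SE, the standard error, 0.045, 95% interval 0.19 to 0.37, edgeR adjusted p = 1.5e-04). The SD was 4.2% of the mean in Olaparib and 0.860% in DMSO. The DMSO value is below what counting noise alone would give at this mean, so the variation between cultures is likely larger.

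DUSP4 (ENSG00000120875, chromosome 8, 29333064 to 29350684) encodes another nuclear MAP kinase phosphatase and is a common marker of ERK output. It had 2076, 2011 and 2095 normalized counts with Olaparib and 1716, 1697 and 1695 with DMSO. The groups were separate, and the gap between them was several times the spread inside either. The DMSO spread was narrower than counting noise alone would give at this mean, so the variation between cultures is likely larger. The mean rose from 1703 ± 11.6 to 2060 ± 44.2, a log2 fold change of 0.28 (SE 0.041, 95% interval 0.19 to 0.36, edgeR adjusted p = 3.5e-05).

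DUSP5 (ENSG00000138166, chromosome 10, 110497907 to 110511533) encodes a nuclear phosphatase that is specific for ERK. There were 3978, 4009 and 4072 normalized counts with Olaparib and 3412, 3617 and 3706 with DMSO. The lowest treated sample was above the highest control, and DMSO replicate 1 was the lowest of all 6. The log2 fold change was 0.17 (SE 0.037, 95% interval 0.093 to 0.24, edgeR adjusted p = 0.00537), with means of 4020 ± 47.9 and 3578 ± 151.

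DUSP6 (ENSG00000139318, chromosome 12, 89347235 to 89352501), the cytoplasmic phosphatase specific for ERK, went the other way. It had 4166, 4250 and 4260 normalized counts with Olaparib and 4463, 4635 and 4867 with DMSO. All treated samples were below all controls, by a margin about as wide as the spacing of the controls themselves. The mean fell from 4655 ± 203 to 4225 ± 51.4, a log2 fold change of -0.14 (SE 0.035, 95% interval -0.21 to -0.068, edgeR adjusted p = 0.0185). The call was lost without DMSO replicate 3 (log2 fold change -0.11, edgeR adjusted p = 0.192) and without DMSO replicate 2 (-0.14, edgeR adjusted p = 0.0794). Without DMSO replicate 1 the change was -0.17 (edgeR adjusted p = 0.00441), and with 1 Olaparib sample left out edgeR's adjusted p was 0.0421 to 0.0469. In the annotation used, 28.6% of the exonic bases of DUSP6 (1105 bases) overlap ENSG00000274021, a long noncoding RNA on the opposite strand. The paper names a stranded library kit, and the deposited counts hold no entry for ENSG00000274021. Since the strand setting of the counting is not given in the sources used here, the part of that RNA in the DUSP6 counts was not tested.

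**Figure D1:**
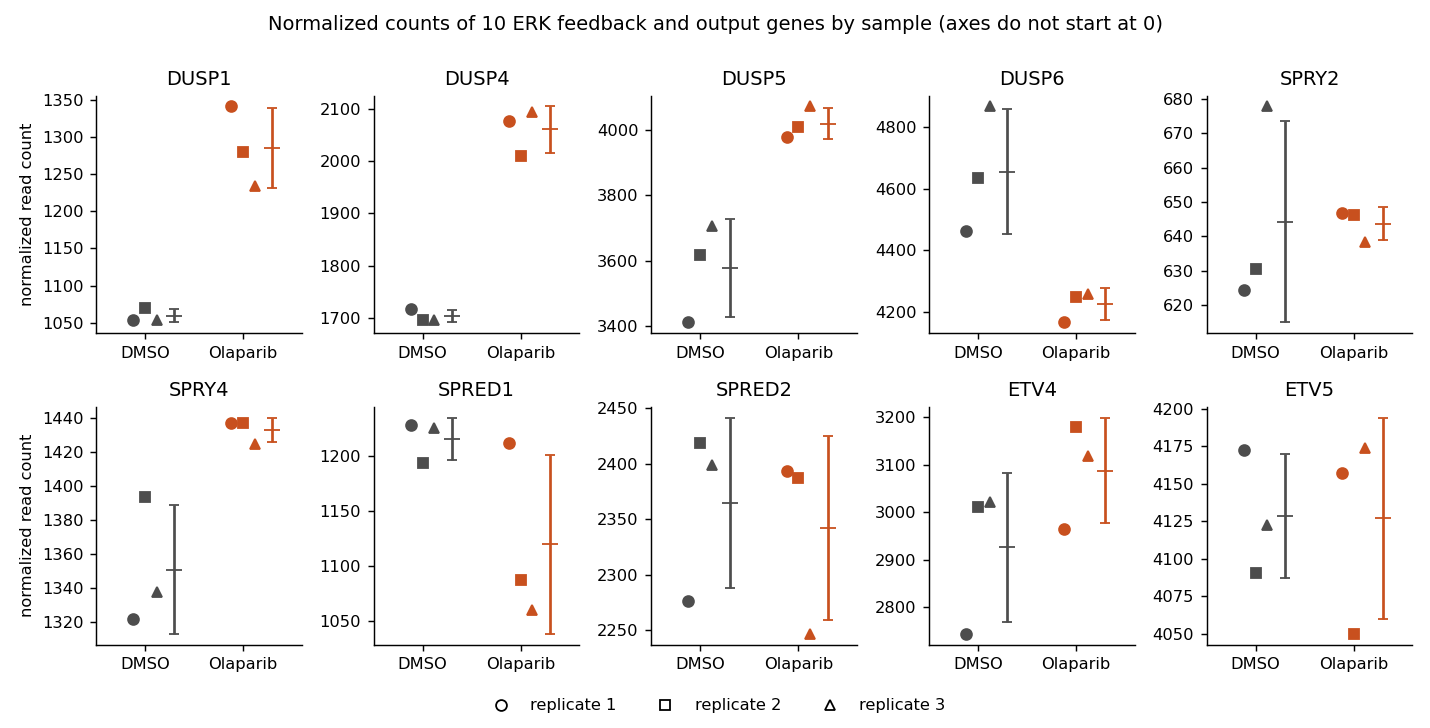
Normalized read counts (y axis, a scale of its own for each gene that does not start at 0) of the 10 genes in the 3 DMSO and the 3 Olaparib samples, with the marker shape giving the replicate and the bar beside the points the mean ± SD. The Olaparib samples lie above the DMSO samples in DUSP1, DUSP4, DUSP5 and SPRY4 and below them in DUSP6, whereas the groups overlap in the other 5 genes.

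The total counts per sample lay between 35360458 and 39640775. Of 9 epithelial and ovarian carcinoma markers, 8 were tested and PAX8 was called, where 3.36% of all genes were. Its log2 fold change was 0.10 (edgeR adjusted p = 0.0399), with 22.4% of its exonic bases overlapping PAX8-AS1 on the opposite strand. At an unadjusted p under 0.05 in edgeR's test, 5 of the 8 were higher and 0 lower, against 14.8% of all genes in either direction. The log2 fold change was below 0 in 2 of the 8. WT1 had 8 counts in total. Of 7 markers of other cell types, PECAM1 and INS had no counts, CD3E had 6 in total, and 4 were tested. VWF was called and rose from 41.8 ± 1.96 to 67.4 ± 3.17 normalized counts (log2 fold change 0.68, edgeR adjusted p = 0.0106). CD14 and ALB had log2 fold changes of 0.42 and 0.70 and were not called (edgeR adjusted p = 0.260 and 0.255). The summed normalized count of these 7 markers was 208 to 217 with Olaparib and 152 to 167 with DMSO. The sum for the 9 epithelial and ovarian markers was 486300 to 511202 with Olaparib and 479489 to 496041 with DMSO. The part of such shifts in the changes of the DUSP genes was not tested.

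The Sprouty genes encode inhibitors that receptor signaling induces and that limit the activation of RAS and RAF. SPRY2 (ENSG00000136158, chromosome 13, 80335976 to 80341126) had 647, 646 and 638 normalized counts with Olaparib and 624, 631 and 678 with DMSO. The treated samples lay inside the range of the controls, and the log2 fold change was -0.0021 (SE 0.051, 95% interval -0.11 to 0.10, edgeR adjusted p = 0.989). SPRY4 (ENSG00000187678, chromosome 5, 142310427 to 142326455) had 1437, 1437 and 1425 with Olaparib and 1322, 1394 and 1338 with DMSO. The SD of SPRY4 with Olaparib, 7.30 at a mean of 1433, is below what counting noise alone would give. Its groups did not overlap, but the log2 fold change of 0.085 (SE 0.043, 95% interval -0.0028 to 0.17) did not pass (edgeR adjusted p = 0.362). Together with the 4 called genes, this made 5 of the 10 genes with separate groups, 4 higher and 1 lower, against 19.3% of all genes tested (10% higher, 9.29% lower) and 25.3% of genes in the same range of counts. This too describes a list chosen with earlier results of these data known.

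The SPRED proteins are relatives of Sprouty that bind neurofibromin and hold down RAS. SPRED1 (ENSG00000166068, chromosome 15, 38252836 to 38357249) had 1212, 1087 and 1060 normalized counts with Olaparib and 1228, 1194 and 1225 with DMSO. Olaparib replicate 1 lay among the controls and the other treated samples below them. The log2 fold change was -0.12 (SE 0.048, 95% interval -0.22 to -0.020, edgeR adjusted p = 0.210). Without Olaparib replicate 1 it was -0.18 (edgeR adjusted p = 0.0186), so 1 library decided this call. With any other sample left out it was -0.13 to -0.082 and not called (edgeR adjusted p 0.261 to 0.610). None of the 9 fits with other settings called SPRED1. SPRED2 (ENSG00000198369, chromosome 2, 65310851 to 65432637) had 2393, 2387 and 2247 with Olaparib and 2276, 2418 and 2399 with DMSO. These ranges overlapped almost fully, with a log2 fold change of -0.014 (SE 0.041, 95% interval -0.097 to 0.069, edgeR adjusted p = 0.925).

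The ETS factors ETV4 and ETV5 differed little between the groups. ETV4 (ENSG00000175832, chromosome 17, 43527844 to 43579620) had 2964, 3180 and 3119 normalized counts with Olaparib and 2744, 3012 and 3022 with DMSO. The lowest treated sample lay below the higher controls, and the log2 fold change was 0.077 (SE 0.041, 95% interval -0.0069 to 0.16, edgeR adjusted p = 0.395). ETV5 (ENSG00000244405, chromosome 3, 186046314 to 186110318) had 4157, 4050 and 4173 with Olaparib and 4172, 4090 and 4122 with DMSO. Its mean was 4127 ± 67.1 with Olaparib and 4128 ± 41.3 with DMSO, a log2 fold change of -4.2e-04 (SE 0.034, 95% interval -0.070 to 0.069, edgeR adjusted p = 0.996). For ETV5 the interval leaves room for a change between -4.71% and 4.88%. For ETV4 it spans -0.480% to 11.8%, and for SPRY2 -7.03% to 7.25%. Of the exonic bases, 1.93% of ETV4 overlap DHX8 on the opposite strand (2694 to 3027 counts per sample) and 2.84% of ETV5 overlap DGKG on the same strand (164 to 195 counts per sample). The exons of the 7 remaining genes overlap no other annotated gene.

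**Figure D2:**
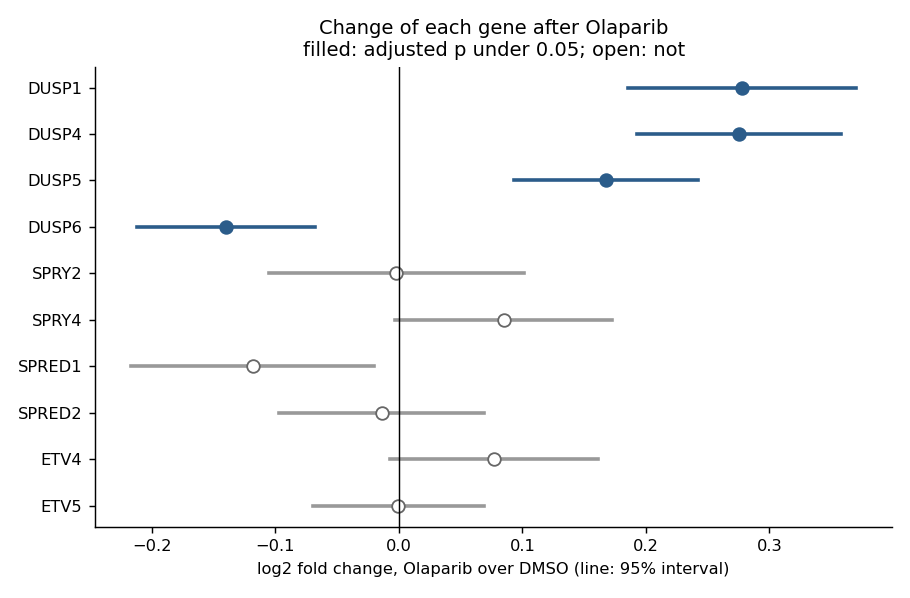
Log2 fold change of each gene, Olaparib over DMSO (x axis), with its 95% interval from edgeR's quasi-likelihood fit as a line, and points filled where the adjusted p was under 0.05. DUSP1, DUSP4 and DUSP5 lie to the right of 0 and DUSP6 to the left, at 0.28, 0.28, 0.17 and -0.14.

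To compare related genes without any scaling between libraries, the log2 ratio of counts was taken within each sample for 5 pairs. The ratio of DUSP4 to DUSP6 was -1.0, -1.08 and -1.02 with Olaparib and -1.38, -1.45 and -1.52 with DMSO, on the log2 scale. The ratio of DUSP5 to DUSP6 was -0.067, -0.084 and -0.065 with Olaparib and -0.39, -0.36 and -0.39 with DMSO. In both pairs the treated samples stood above all controls, with differences of 0.41 and 0.31. Both set a gene that rose over DUSP6, the gene that fell, so they restate the changes of the single genes and share a denominator. The SD within a group was at most 0.071 for DUSP4 to DUSP6 and 0.019 for DUSP5 to DUSP6. The SDs of DUSP5 to DUSP6 are below what counting noise alone would give at these counts. For SPRY2 to SPRY4 the treated samples lay between -1.16 and -1.15 and the controls between -1.14 and -0.98. The Olaparib SD of this pair, 0.0034, is also below what counting noise alone would give. The difference was -0.086, and -0.041 without DMSO replicate 3. For SPRED1 to SPRED2 it was -0.11 and for ETV4 to ETV5 0.079, and the groups overlapped in both. The ETV4 to ETV5 difference was 0.026 without DMSO replicate 1 and 0.044 without Olaparib replicate 2. The exact permutation test over samples (two-sided) gave p = 0.1 for the first 3 pairs, the smallest that 3 samples against 3 allow, 0.2 for SPRED1 to SPRED2 and 0.4 for ETV4 to ETV5. After Benjamini-Hochberg adjustment over the 5 pairs, the values from this exact test were 0.167, 0.25 and 0.4, so none could pass 0.05 in this design.

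**Figure D3:**
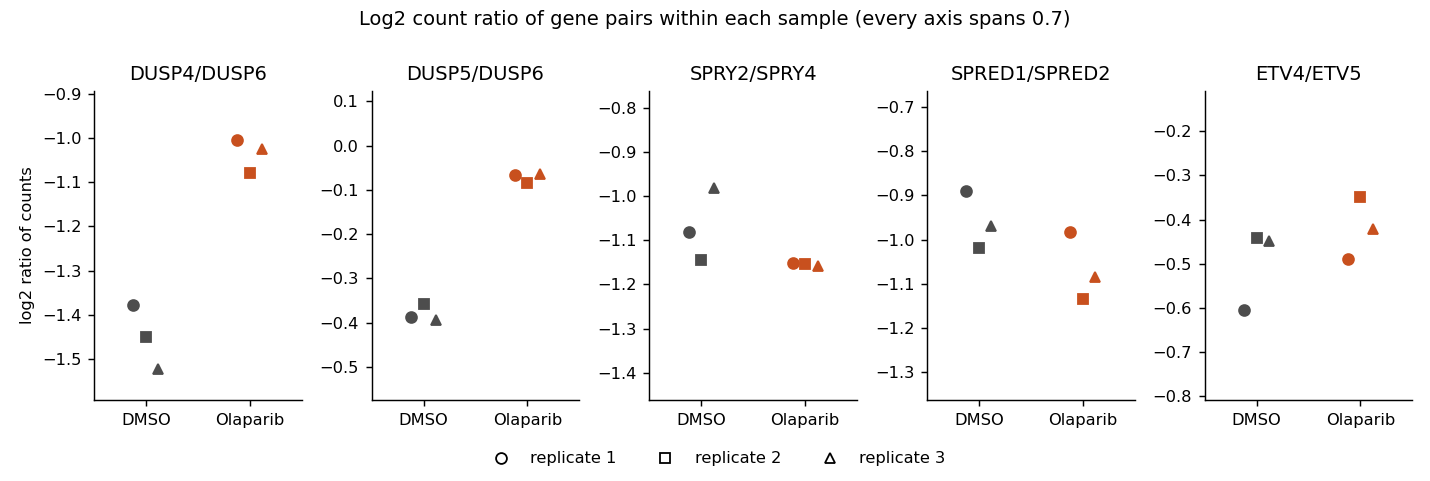
Log2 ratio of the counts of 2 genes within each sample (y axis, every panel spanning 0.7) for 5 pairs in the DMSO and Olaparib samples, with the marker shape giving the replicate. The ratios to DUSP6 lie higher in all Olaparib samples, by 0.41 for DUSP4 and 0.31 for DUSP5.

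Levels were compared between genes as CPM (counts scaled to a common depth) per kilobase of merged exons. In DMSO they ran from DUSP5 (37.7 ± 1.59), DUSP6 (32.2 ± 1.41), ETV4 (22.2 ± 1.2) and ETV5 (19.1 ± 0.191) down to SPRY4 (5.51 ± 0.154), SPRY2 (5.36 ± 0.244) and SPRED1 (4.19 ± 0.0654). DUSP1 (14.1 ± 0.121), SPRED2 (11.5 ± 0.373) and DUSP4 (6.25 ± 0.0427) lay between them. In this order, 8 of the 9 neighbouring pairs had separate ranges over the 6 samples, and SPRY4 and SPRY2 did not. The phosphatase most abundant per length, DUSP5, was thus a gene that rose, and the next, DUSP6, the gene that fell. The level of DUSP5 went from 37.7 to 42.4 and that of DUSP6 from 32.2 to 29.3 on this scale. With the length of the canonical transcript in place of merged exons, 6 of the 9 pairs stayed separate, and DUSP6 and ETV4 (34.3 and 33.5 in DMSO) as well as DUSP1 and SPRED2 could no longer be ordered. Both lengths came from GENCODE release 44, which 81.9% of the identifiers in the count table matched. The exons used for counting may therefore differ, and the effect on this order was not tested.

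**Figure D4:**
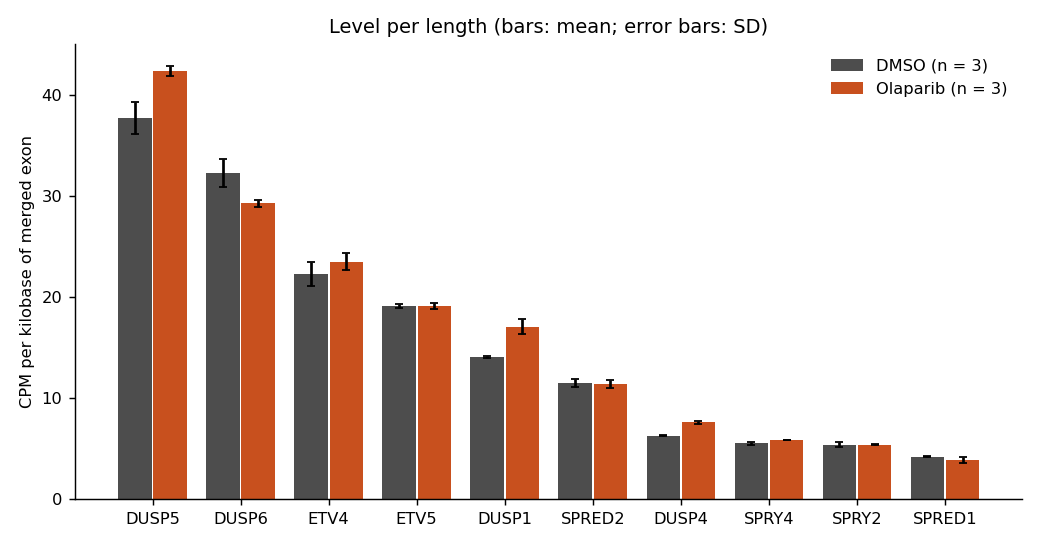
Level of each gene as CPM per kilobase of merged exon (y axis from 0), with bars for the mean and error bars for the SD of 3 DMSO and 3 Olaparib samples. DUSP5 and DUSP6 stand highest, at 37.7 and 32.2 in DMSO, and SPRED1 lowest, at 4.19.

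The same test was read for 4 further lists of the pathway. Their counts stand against 2.15% of all genes called higher and 1.21% called lower, and against 1702 genes higher and 1515 lower of 21729 at an unadjusted p under 0.05. Of 10 other genes of the DUSP, SPRY, SPRED and ETV families, 1 rose and 0 fell in edgeR's test, and at an unadjusted p under 0.05 there were 1 higher and 0 lower. The gene that rose was DUSP10, a phosphatase of p38 and JNK, with 629, 583 and 664 normalized counts with Olaparib and 578, 515 and 467 with DMSO. Its log2 fold change was 0.27 (SE 0.063, edgeR adjusted p = 0.00928), and edgeR's adjusted p was 0.107, 0.0652 and 0.157 without Olaparib replicate 3, DMSO replicate 2 and DMSO replicate 3. ETV1, the relative of ETV4 and ETV5, had a log2 fold change of -0.11 (edgeR adjusted p = 0.575).

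Of 24 components of the cascade itself, from the adaptors through RAS, RAF, MEK and ERK to ERK substrates, 1 rose and 0 fell, with 3 higher and 1 lower at an unadjusted p under 0.05 in edgeR's test. The called share was 4.17%, near the 3.36% of all genes tested. MAP2K2, which encodes MEK2, had 3776, 4109 and 3767 normalized counts with Olaparib and 3384, 3498 and 3564 with DMSO. The log2 fold change was 0.16 (SE 0.038, edgeR adjusted p = 0.0135), and edgeR's adjusted p was 0.133, 0.0514 and 0.0640 without Olaparib replicate 2, DMSO replicate 1 and DMSO replicate 2. MAP2K1, encoding MEK1, had a log2 fold change of 0.0066. For MAPK3, encoding ERK1, it was 0.047 (edgeR adjusted p = 0.748). MKNK2, a kinase activated by ERK, had the next smallest p of this list (log2 fold change 0.087, edgeR adjusted p = 0.171).

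Of 9 other negative regulators of receptor and RAS signaling, 0 passed an adjusted p of 0.05 in edgeR's test, and 1 had an unadjusted p under 0.05, as had 14.8% of all genes tested. DESeq2 and limma voom also called 0 of them. IL17RD, a membrane inhibitor of the pathway also known as SEF, had a log2 fold change of 0.13 (edgeR adjusted p = 0.253), and NF1, the RAS GTPase-activating protein neurofibromin, 0.065 (edgeR adjusted p = 0.559).

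Of 20 other genes commonly read as ERK output, 0 rose and 2 fell, with 1 higher and 5 lower at an unadjusted p under 0.05 in edgeR's test. PHLDA1, a stress-responsive gene of the pleckstrin homology-like family, had 3176 ± 83.7 normalized counts with DMSO and 2783 ± 51.4 with Olaparib, and fell by 0.19 on the log2 scale (SE 0.038, edgeR adjusted p = 0.00201). Of its exonic bases, 9.35% overlap PHLDA1-AS1 on the opposite strand, which had 2 to 9 counts per sample. EGR1, an immediate early transcription factor, had 117, 84.1 and 89.5 normalized counts with Olaparib and 199, 197 and 214 with DMSO. That is a log2 fold change of -1.07 (SE 0.11), larger in size than that of any of the 10 feedback and output genes. FOS, another immediate early gene, had a log2 fold change of 0.093 (edgeR adjusted p = 0.589), and CCND1, the cyclin D1 gene, -0.059 (edgeR adjusted p = 0.262). The median log2 fold changes of these 4 lists were -0.012, 0.012, 0.030 and -0.026 in the order given.

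**Figure D5:**
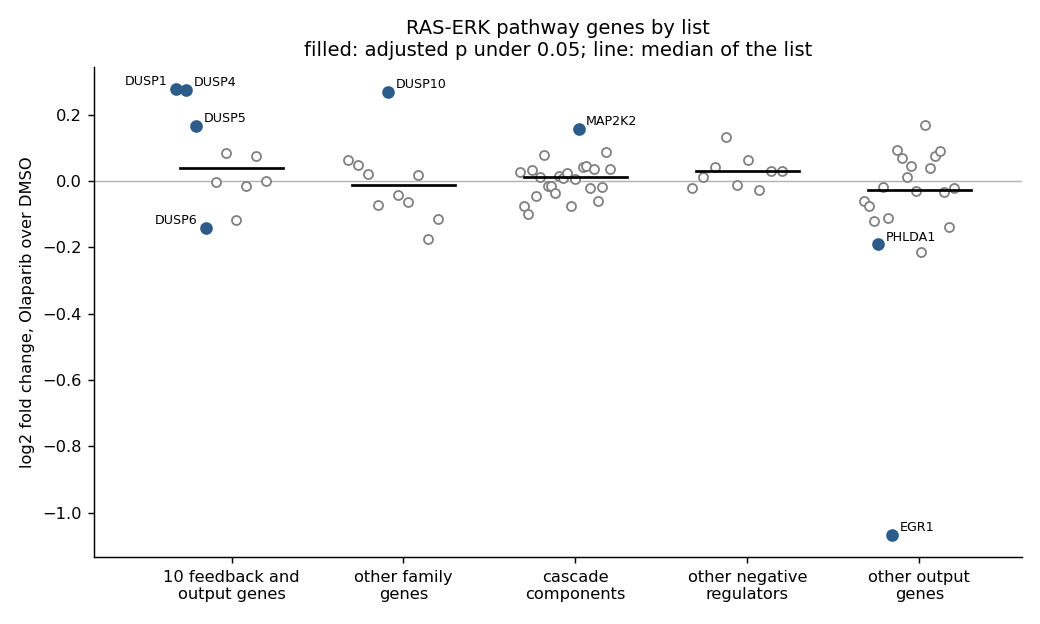
Log2 fold change, Olaparib over DMSO (y axis), of every tested gene in 5 lists of the RAS-ERK pathway, with points filled and named where the adjusted p was under 0.05 and a line at the median of each list. Most points lie near 0. The called rises are those of DUSP1, DUSP4, DUSP5, DUSP10 and MAP2K2, and the called falls those of DUSP6, PHLDA1 and EGR1. EGR1 lies far below all others at -1.07.

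Of the genes with a mean of at least 100 normalized counts, 11996 were compared with DUSP6 by the root mean square distance between their log2 profiles over the 6 samples, each centred on its own mean. The 5 nearest were ANO8, APEX2, TMEM39B, BDNF and LRFN3, with distances of 0.011 to 0.020 on the log2 scale. Their log2 fold changes were -0.13, -0.12, -0.13, -0.13 and -0.12, and edgeR's adjusted p was 0.116 to 0.534, so none of them passed. These genes were picked for their likeness in the same samples, so fold changes near that of DUSP6 follow from the choice. The profile is not distinctive, since 3229 genes were nearer to DUSP6 than a flat profile would be, at a distance of 0.079. Among the other 9 feedback and output genes the nearest was SPRY2 at 0.072, and DUSP1 and DUSP4 were the farthest at 0.22 and 0.21.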

How the data were processed

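Poly(A) RNA from 6 cultures was sequenced. According to the paper, the authors used Trimmomatic for adapters, STAR for mapping to GRCh38, Picard for duplicates and featureCounts for counting. The deposited values are raw counts, 1 whole number for each gene and sample. The library kit was a stranded one. Whether duplicates were removed, and the strand setting of the counting, are not given in the sources used here, so counts of genes with overlapping exons are uncertain. At these depths the 95% intervals of the 10 genes reached 0.069 to 0.10 (log2) to either side. Errors are SDs over 3 cultures.

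Genes with more than 10 counts in total were kept, scaled by TMM (factors 0.995 to 1.01) and tested with edgeR 4.0.16 (quasi-likelihood, no replicate block) in R 4.3.3, with Benjamini-Hochberg adjustment over all genes. Genes were called at an adjusted p under 0.05. Intervals come from the standard error and the degrees of freedom of that fit. The test was tried on simulated counts. The alternatives were DESeq2 1.42.0, limma 3.58.1 (voom), other scalings, filters and thresholds, a replicate block and leaving out each sample. Replicates differed by more than sampling noise (chi-square per degree of freedom 1.81 to 4.11). Symbols, coordinates and exon lengths came from GENCODE release 44 on GRCh38, since the table gives no lengths, and 81.9% of the identifiers matched. Promoters came from RefSeq.

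The 10 genes and the lists were chosen with earlier results of these data known. Named were the 10 genes, every called gene of the other lists (or the 2 with the smallest p), genes at or under 10 counts, genes whose exons overlap those of the 10, and the 5 genes nearest to DUSP6. MAP2K1, MAPK3, FOS, CCND1, CD14 and ALB were named after their values were seen. One gene of the lists is not reported here.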

Additional observations from a re-analysis of the deposited data

How the results depend on the processing

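The count of 4 called genes among the 10 (3 higher, 1 lower) was also found with DESeq2, limma voom, robust dispersion, RLE, upper quartile and total-count scaling, both other filters, the replicate block and an adjusted p under 0.1. With the 1.2-fold condition it was 2. With 1 sample left out it was 3 to 5. DUSP1, DUSP4 and DUSP5 were called in each of these 9 other fits and each of the 6 fits with a sample left out, with adjusted p values of at most 5.1e-04 and 0.00340, 1.6e-04 and 0.00145, and 0.00976 and 0.0369. DUSP6 was called in the 9 other fits (adjusted p 0.00278 to 0.0175) and in 4 of the 6 with a sample left out, where its log2 fold change was -0.17 to -0.11.

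The sign changed only for genes near 0. Without a filter ETV5 was 5.5e-04. With samples left out, SPRY2 was -0.022 to 0.035, SPRED2 -0.039 to 0.013 and ETV5 -0.010 to 0.013. None of these was called. The pair ratios kept their sign with 0.5 added to each count and with each sample left out, but with a sample left out the difference of SPRY2 to SPRY4 was -0.12 to -0.041 and that of ETV4 to ETV5 0.026 to 0.11.

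Over all genes, 730 were called, and 398 to 870 with a sample left out. The fewest were without DMSO replicate 2 (398), DMSO replicate 3 (401) and Olaparib replicate 3 (439), and the cause was not tested. DESeq2 called 525. The calls split 467 higher and 263 lower, and with upper quartile scaling 395 and 304. With samples left out, 0 to 1 of the other family genes and 0 to 2 of the cascade components were called.

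With the replicate number as a block, 1322 genes and 3 cascade components were called. The numbers pair nothing that the labels name, and same-numbered samples deviated together in 1 of 3 pairs (correlations of deviations -0.20, 0.26 and -0.32). Samples with different numbers reached larger values. Olaparib replicate 3 had a correlation of 0.48 with DMSO replicate 1 and -0.38 with DMSO replicate 2, and the cause was not tested.

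The comparison of lengths was chosen after seeing the data. Depth and the number of samples leave 95% intervals of at least 0.069 (log2) to either side for the 10 genes.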
